A study of Mus musculus with 8 samples.

Results

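The genes described here are 10 signals and receptors of blood vessel growth, all measured in single cells from mouse tibiae. They were the ligands Vegfa, Vegfb, Vegfc, Pgf and Pdgfb, the receptors Flt1, Kdr and Pdgfrb, and the co-receptors Nrp1 and Nrp2. They were chosen by name, and all 10 were among the 31053 genes of the deposited mouse matrix. Cells came from mice at P56 (8 weeks), with no treatment, and their alleles were MMP14 F/+ and COL10A1cre, together with the reporters R26-tdT and Col1a1-2.3-GFP. All mice therefore carried 1 floxed Mmp14 allele together with the Cre, and no animal without them was in the group. The Cre is made under Col10a1, a gene of hypertrophic chondrocytes (HCs), which marks them and the cells that derive from them with tdTomato, and the GFP transgene under a Col1a1 promoter fragment marks osteoblasts. Per the study's methods, trabecular bone with part of the growth plate was digested after the first suspensions had been removed, and tdTomato cells were enriched. The 8 labelled samples were of 1 group and held cells of 3 pooled mice in 1 matrix with no mark of sample or mouse, so that replicates were absent and every difference below comes without a p-value.

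VEGF ligands are secreted proteins that act on receptor tyrosine kinases of the endothelial cells lining blood and lymph vessels. In growing bone, hypertrophic cartilage is known as a source of Vegfa, and vessels enter it as it is replaced by bone and marrow. Kdr (VEGF receptor 2) carries most of the growth signal, Flt1 (VEGF receptor 1) binds Vegfa tightly and limits that signal, and neuropilins hold ligand beside these receptors and also bind semaphorins. Pdgfb is released by endothelial cells and acts on Pdgfrb of the mural cells (pericytes and smooth muscle) that wrap the vessel.

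The matrix held 12564 barcodes and 91463572 unique molecular identifiers (UMIs), of which 8023 barcodes of at least 1000 genes, with 72275132 UMIs, were used. They were sorted into 9 gates on raw UMIs of marker genes. The Col2a1 gate (at least 10 Col2a1 UMIs with at most 1 of Prg4) held 251 barcodes of growth-plate type cartilage, the Col10a1+Ihh gate (at least 5 UMIs together) held 80 with hypertrophic genes, and the Prg4+Cilp gate (at least 2 together, with Acan) held 200 with genes of surface cartilage. The Bglap gate (at least 20) held 56 barcodes of osteoblast type, the Cxcl12 gate (at least 20, with at least 2 of Lepr and Adipoq) held 26 of marrow stroma type, and the Dcn and Col3a1 gate (at least 3 of each) held 172 of fibroblast type. The Cdh5 gate (at least 1) held 97 barcodes with the endothelial cadherin gene, the Rgs5 gate (at least 3) held 34 with a mural gene, and the Ptprc gate (at least 1) held 5716 with the pan-leukocyte gene. The Ptprc gate made up 71.25% of the barcodes, although the labels call the cells chondro-osteogenic. Median depth ran from 6395.5 UMIs per barcode in the Ptprc gate to 24489.5 in the Bglap gate.

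The gates were not pure classes, and 320 barcodes lay in 2 or more of them. Of the 80 Col10a1+Ihh barcodes, 44 were also in the Col2a1 gate, 35 in the Prg4+Cilp gate and 10 in the Bglap gate, and the summed surface cartilage markers Prg4, Cilp, Cytl1 and Clu stood at 28172 UMIs per 1000000 UMIs (CPM) in it. The Dcn and Col3a1 gate shared 82 of its 172 barcodes with the Prg4+Cilp gate and 14 with the Col2a1 gate. Its summed surface cartilage markers stood at 17358 CPM. The Bglap gate shared 25 of its 56 barcodes with the Col2a1 gate and 12 with the Dcn and Col3a1 gate, and 27 of the 56 held a GFP UMI. Of the 97 Cdh5 barcodes, 50 also held a Ptprc UMI, and their 6 endothelial markers summed to 694 CPM against 4753 CPM in the 47 without it. The Cxcl12 gate shared 4 barcodes with the Cdh5 gate and the Rgs5 gate shared 2. Outside those, where Cdh5 is 0 by the gate's rule, the endothelial markers still summed to 53.61 CPM in the Cxcl12 gate, mostly Eng at 41.7 CPM, and to 78.53 CPM in the Rgs5 gate, with Pecam1 at 30.73 CPM and Tie1 at 23.9 CPM. The Rgs5 gate had its mural genes (Acta2 at 3596 CPM and Myh11 at 1303 CPM) but also 18261 CPM of Prg4, of which 71.95% lay in 3 of its 34 barcodes. Summed neutrophil markers were found in every gate, from 1946 CPM in the Cxcl12 gate to 33606 CPM in the Cdh5 gate, against 122044 CPM in the Ptprc gate. Their part in the values below was not tested. All intervals below are 95% and cover counting error only.

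**Figure D1:**
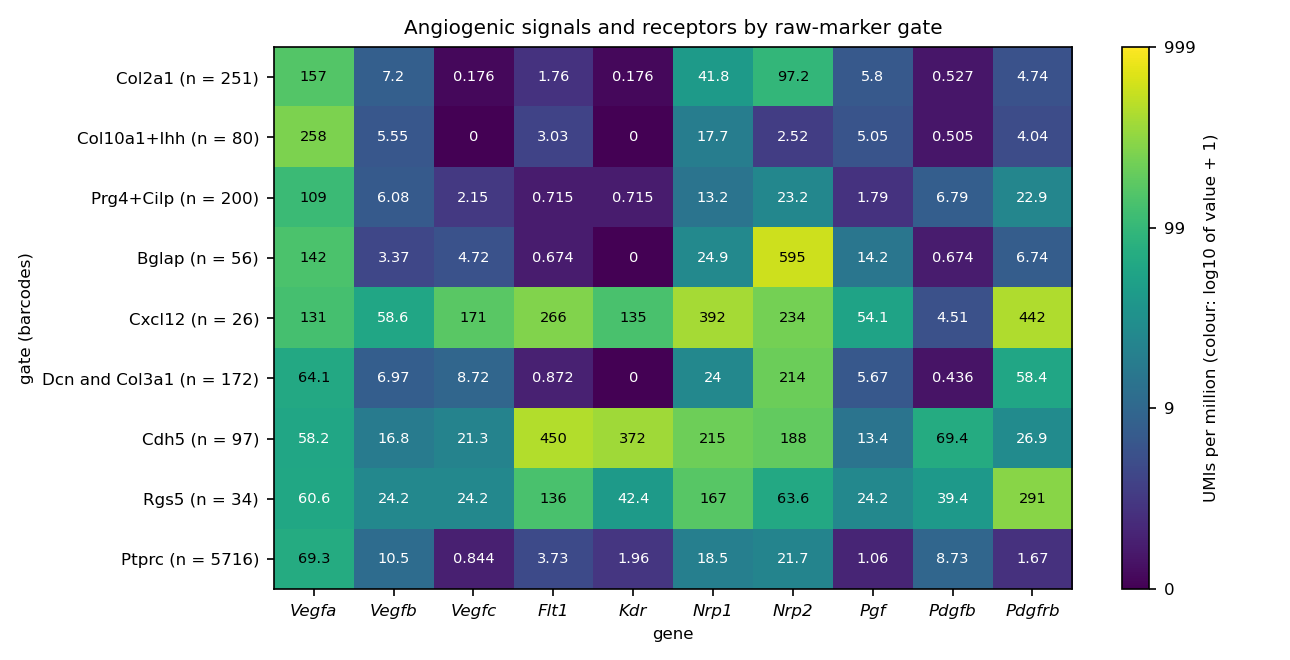
CPM of the 10 genes (columns) in the 9 marker gates (rows, with the number of barcodes), printed in each cell and coloured on a log scale. Vegfa was found in every gate, Flt1 and Kdr lay in the Cdh5, Cxcl12 and Rgs5 gates, and Nrp2 was highest in the Bglap gate at 595 CPM.

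To ask which cells transcribed the ligands, Vegfa was examined first. Vegfa encodes the main vessel growth factor, and it was detected in every gate, between 58.2 and 258.1 CPM. Its level was highest in the Col10a1+Ihh gate, at 258.1 CPM (236 to 281), with 511 UMIs in 59 of 80 barcodes. The Col2a1 gate followed at 157.2 CPM (147 to 168), and its interval did not meet that of the Col10a1+Ihh gate. Next came the Bglap gate at 142.3 CPM, the Cxcl12 gate at 130.7 CPM and the Prg4+Cilp gate at 109 CPM. Each of these overlapped its neighbour in the order by its interval. The Ptprc gate at 69.35 CPM, the Dcn and Col3a1 gate at 64.07 CPM, the Rgs5 gate at 60.59 CPM and the Cdh5 gate at 58.2 CPM formed the lower group, within which neighbours also overlapped. The Cdh5 gate, which held the most Kdr of the 9, was thus the lowest for Vegfa.

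The share of barcodes with a Vegfa UMI was 73.75% (62.7% to 83.0%) in the Col10a1+Ihh gate, whose median depth was 24146.5 UMIs. B cells, taken as Ptprc barcodes with at least 5 Cd79a and Cd79b UMIs, gave 12.91% at a median of 3650.5 UMIs. With barcodes thinned to 3000 UMIs, and shallower ones left out, the shares were 39.59% in the Col10a1+Ihh gate and 7.63% in the 1374 of 2022 B cells that were deep enough, which are the B cells of every thinned share below. Thinned shares in the other non-blood gates ran from 12.23% in the Cdh5 gate to 39.80% in the Cxcl12 gate, so that by share the Cxcl12 gate stood beside the Col10a1+Ihh gate. Barcodes in no gate, 1770 in number, held 25.28 CPM.

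The overlapping barcodes bore on where within cartilage and bone Vegfa was found. Within the Col10a1+Ihh gate, the 44 barcodes shared with the Col2a1 gate held 282.6 CPM (256 to 311), and the 35 shared with the Prg4+Cilp gate held 203.1 CPM (166 to 246). The 42 barcodes with an Ihh UMI held 285.2 CPM and the 38 without one 193.8 CPM. Outside the Col10a1+Ihh gate both cartilage gates were lower. The 207 remaining Col2a1 barcodes held 114.6 CPM and the 165 remaining Prg4+Cilp barcodes held 88.2 CPM. A like division was seen in the Bglap gate, whose 25 barcodes shared with the Col2a1 gate held 179.8 CPM (153 to 209), against 81.4 CPM (59.6 to 109) in the 31 outside it. In the plot of Vegfa by split, both cartilage gates lay higher with the Col10a1+Ihh barcodes than without, and the Bglap gate higher with the Col2a1 barcodes. Other mixtures went the other way, as the 12 Bglap barcodes shared with the Dcn and Col3a1 gate held 68.08 CPM against 169.4 CPM in the 44 others.

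**Figure D2:**
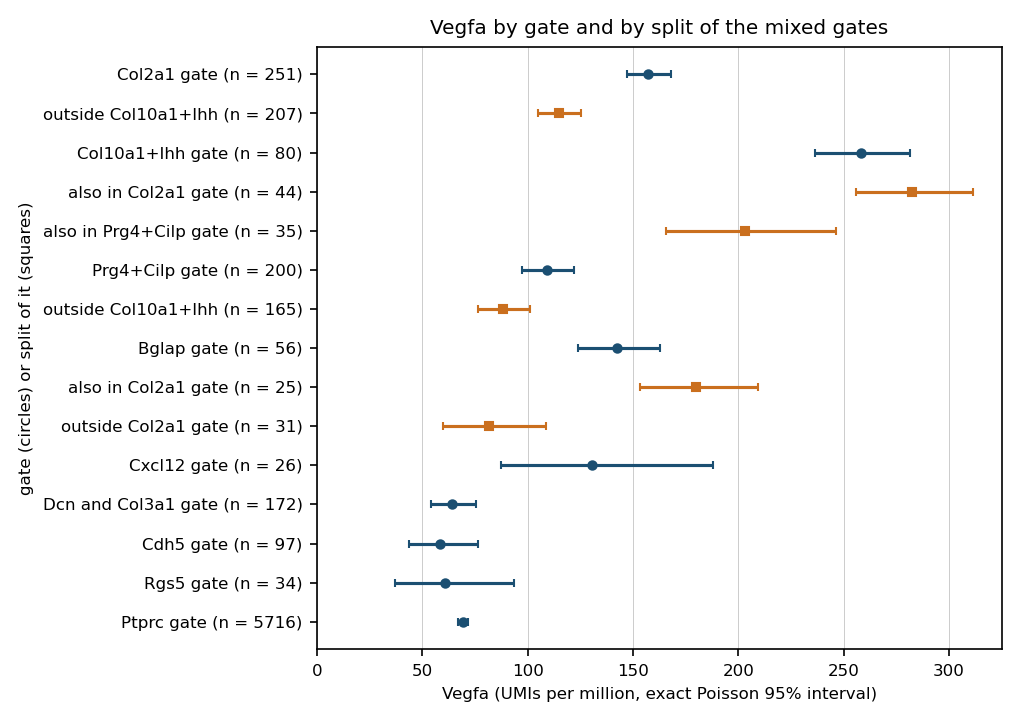
Vegfa in CPM (horizontal axis) in each gate (circles) and in splits of the mixed gates (squares), with exact Poisson 95% intervals. The Col10a1+Ihh gate stands apart at 258.1 CPM, and the Bglap gate divides into 179.8 CPM with and 81.4 CPM without Col2a1-gate barcodes.

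Vegfc, a ligand known for lymphatic vessel growth through Flt4 and also for binding Kdr, was concentrated in a single gate. The Cxcl12 gate held 171.2 CPM (121 to 235), with 38 UMIs in 17 of 26 barcodes and at most 6 UMIs in any of them. This was 7.06-fold above the Rgs5 gate at 24.2 CPM. The Cdh5 gate held 21.3 CPM and the Dcn and Col3a1 gate 8.72 CPM. Cartilage held little of it, with 6 UMIs in the 200 Prg4+Cilp barcodes, 1 UMI in the 251 Col2a1 barcodes and none in the 80 of the Col10a1+Ihh gate, where 3 UMIs would have been 1.515 CPM. The Rgs5 value rested on the 2 barcodes shared with the Cdh5 gate, since the 32 others held 1 Vegfc UMI. The Cxcl12 value did not rest on such barcodes, as its 22 barcodes outside the Cdh5 gate held 196.6 CPM (135 to 276) in 16 of them. Thinned to 3000 UMIs, 36.36% of Cxcl12-gate barcodes and 0.431% of B cells held a Vegfc UMI (65.38% and 0.791% unthinned, at median depths of 7334.5 and 3650.5 UMIs). Among all genes of at least 20 UMIs in the 9 gates together, 1.93% had a highest gate at least 4-fold above every other gate. Of the 10 members Vegfc alone met that rule with mixed barcodes kept. With the Cdh5-gate barcodes left out of the other gates, 2.35% of genes met it, and 3 members did, Vegfc in the Cxcl12 gate and Kdr and Flt1 in the Cdh5 gate.

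Vegfb and Pgf, both ligands of Flt1, were scarce. Vegfb was highest in the Cxcl12 gate at 58.57 CPM (31.2 to 100), from 13 UMIs, and ranged from 3.37 to 24.2 CPM in the other gates. Pgf was likewise highest in the Cxcl12 gate, at 54.07 CPM (27.9 to 94.4) from 12 UMIs, with 24.2 CPM in the Rgs5 gate and 14.2 CPM in the Bglap gate. For both genes the interval of the Cxcl12 gate overlapped that of the Rgs5 gate, so that their order at the top was not resolved at this depth.

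Pdgfb, the ligand by which endothelium draws mural cells, was highest in the Cdh5 gate at 69.39 CPM (53.2 to 89.0), with 62 UMIs in 29 of 97 barcodes. The Rgs5 gate followed at 39.4 CPM (21.0 to 67.4), and its interval overlapped. Of the 13 Rgs5-gate UMIs, 7 lay in 1 barcode, and the 32 barcodes outside the Cdh5 gate held 20.49 CPM. In the Col2a1, Col10a1+Ihh, Bglap and Dcn and Col3a1 gates between 1 and 3 UMIs were found. The 6.79 CPM of the Prg4+Cilp gate came from 19 UMIs, of which 17 lay in 1 barcode.

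To ask which cells could receive these signals, the receptors were examined in the same gates. Kdr and Flt1 had the same order, with the Cdh5 gate above the Cxcl12 gate, the Cxcl12 gate above the Rgs5 gate, and each step outside the intervals. Kdr stood at 371.6 CPM (333 to 414) in the Cdh5 gate, with 332 UMIs in 46 of 97 barcodes, at 135.2 CPM in the Cxcl12 gate and at 42.4 CPM in the Rgs5 gate. It was at 1.96 CPM in the Ptprc gate, and no Kdr UMI was found in the Col10a1+Ihh, Bglap and Dcn and Col3a1 gates, where 3 UMIs would have been 1.515, 2.02 and 1.31 CPM. Flt1 stood at 449.9 CPM (407 to 496) in the Cdh5 gate, with 402 UMIs in 43 barcodes, at 265.8 CPM in the Cxcl12 gate and at 136.3 CPM in the Rgs5 gate. In all other gates it was between 0.674 and 3.73 CPM. Thinned to 3000 UMIs, 39.39% of Cdh5-gate barcodes held a Kdr UMI and 38.63% an Flt1 UMI (47.42% and 44.33% unthinned, at a median depth of 6972 UMIs). B cells gave 0.317% and 0.451% (0.346% and 0.791% unthinned).

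In both the Cxcl12 and the Rgs5 gate the VEGF receptors came from the few barcodes that also lay in the Cdh5 gate. The 22 Cxcl12 barcodes outside it held no Kdr and no Flt1 UMI, while 3 of the 4 inside it held all 30 Kdr and all 59 Flt1 UMIs. The 32 Rgs5 barcodes outside it held no Kdr UMI and 1 Flt1 UMI. None of these 4 and 2 shared barcodes was called a doublet. Outside the Cdh5 gate, 3 UMIs would have been 17.9 CPM in the Cxcl12 gate and 10.2 CPM in the Rgs5 gate, so that lower levels were not detectable at this depth.

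Within the Cdh5 gate, the levels divided by Ptprc. The 47 barcodes without a Ptprc UMI held 628.2 CPM of Kdr (553 to 711) in 38 barcodes, against 167 CPM (133 to 207) in 8 of the 50 with it. Flt1 stood at 817.5 CPM (731 to 912) without Ptprc and at 156.9 CPM (124 to 196) with it. In the barcodes with Ptprc, a single barcode held 45 of the 83 Kdr UMIs and a single barcode 39 of the 78 Flt1 UMIs, which these intervals do not cover, and without it the levels were 84.14 CPM of Kdr and 86.36 CPM of Flt1. Summed neutrophil markers were 716.5 CPM without Ptprc and 59828 CPM with it. The Cdh5 barcodes without Ptprc were split further by Stab2 or Flt4, genes of sinusoidal or lymphatic endothelium. Kdr was at 781.9 CPM (682 to 892) in the 30 barcodes with either gene and at 246.3 CPM (164 to 356) in the 17 with neither. Flt1 was at 916.3 CPM and 571.7 CPM. Pdgfb went the other way in its values, at 113.2 CPM (77.4 to 160) with and 211.1 CPM (135 to 314) without these genes, but these intervals overlapped. Pgf stood at 10.61 CPM with and 79.16 CPM without them, from 3 and 9 UMIs.

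**Figure D3:**
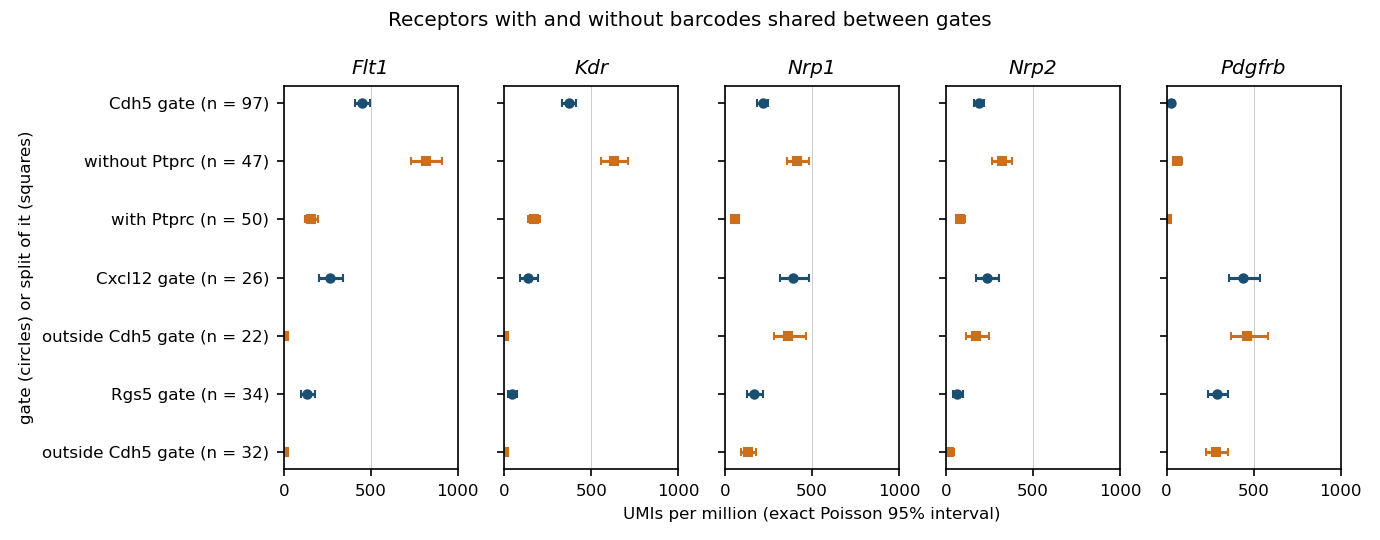
CPM (horizontal axis, exact Poisson 95% intervals) of 5 receptors and co-receptors in the Cdh5, Cxcl12 and Rgs5 gates (circles) and in splits of them (squares). Flt1 and Kdr were at 0 or near 0 in the Cxcl12 and Rgs5 gates once barcodes of the Cdh5 gate were left out, whereas Nrp1 and Pdgfrb kept 363.4 and 464.6 CPM in the Cxcl12 gate.

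Kdr and Flt1 lie on mouse chromosome 5 (GRCm38, chr5:75932827-75978458 and chr5:147561604-147726011, both on the minus strand), and Vegfa lies on chromosome 17 (chr17:46016993-46032369, minus strand). The 250 bases before the annotated start of each gene are shown, since the receptors followed the same pattern over the gates and the ligand did not. Sequences are from RefSeq on GRCm38.p6, in which 8 of the 10 members were matched. The windows are chr5:75978456-75978705, chr5:147726012-147726261 and, for the outer start of Vegfa, chr17:46032378-46032627, all written 5′ to 3′ on the minus strand. Capitals mark GGAAG, which is GGAA, the core that ETS factors of endothelial cells bind, with a flanking G, and GGGCGG, a GC box, each in either orientation.
Kdr: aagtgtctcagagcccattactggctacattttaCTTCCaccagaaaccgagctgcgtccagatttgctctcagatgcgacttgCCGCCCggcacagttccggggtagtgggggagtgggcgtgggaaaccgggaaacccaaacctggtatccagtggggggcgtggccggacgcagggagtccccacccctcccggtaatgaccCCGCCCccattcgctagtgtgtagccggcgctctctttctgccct
Flt1: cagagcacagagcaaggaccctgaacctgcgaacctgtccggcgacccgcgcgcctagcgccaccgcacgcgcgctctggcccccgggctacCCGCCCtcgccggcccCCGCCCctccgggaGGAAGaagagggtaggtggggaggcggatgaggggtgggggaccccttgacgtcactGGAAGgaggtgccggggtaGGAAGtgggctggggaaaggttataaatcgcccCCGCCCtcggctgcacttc
Vegfa: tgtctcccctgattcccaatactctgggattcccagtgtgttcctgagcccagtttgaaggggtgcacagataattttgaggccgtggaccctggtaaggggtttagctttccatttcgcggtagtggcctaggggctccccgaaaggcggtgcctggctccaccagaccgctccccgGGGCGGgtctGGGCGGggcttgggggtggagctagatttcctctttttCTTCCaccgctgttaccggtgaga
GGAAG was found 1 time for Kdr, at 216 bases before the start, 3 times for Flt1, at 128, 71 and 52 bases, and 1 time for Vegfa, at 24 bases. It was present in 64.07% of 32851 promoter windows of the table, so its presence sets none of the 3 apart. GGGCGG, held by 32.74% of windows, was found 2, 3 and 2 times. The hypoxia response core ACGTG, searched on both strands and held by 16.57% of windows, was in none of the 3 windows shown and was found 1 time before the inner Vegfa start. TGATAA, held by 7.942%, was in none of them, and TATAAA, held by 12.37%, was found only for Flt1 at 31 bases. A match is a run of letters, not a bound site.

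Neuropilins were wider in reach than the kinases. Nrp1, the co-receptor known best for blood endothelium, was highest in the Cxcl12 gate at 392 CPM (314 to 484), above the Cdh5 gate at 214.9 CPM (186 to 248) and the Rgs5 gate at 166.6 CPM. Unlike Kdr and Flt1, Nrp1 remained in these gates outside the Cdh5 gate, at 363.4 CPM in 16 of 22 Cxcl12 barcodes and at 129.7 CPM in 15 of 32 Rgs5 barcodes. Cartilage held less, with 41.8 CPM in the Col2a1 gate, 17.7 CPM in the Col10a1+Ihh gate and 13.2 CPM in the Prg4+Cilp gate. Within the Col10a1+Ihh gate Nrp1 stood at 24.43 CPM in barcodes with Ihh and at 1.70 CPM in those without. Thinned shares were 55.68% in the Cxcl12 gate and 1.00% in B cells (73.08% and 2.42% unthinned).

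Nrp2, known as the co-receptor of lymphatic and venous vessels, was highest not in a vessel gate but in the Bglap gate, at 594.8 CPM (556 to 635). There 882 UMIs lay in 41 of 56 barcodes, with a median of 17 UMIs in those 41 and a highest value of 127. This was 2.54-fold above the Cxcl12 gate at 234.3 CPM (175 to 307). The Dcn and Col3a1 gate held 213.6 CPM, the Cdh5 gate 188 CPM, the Col2a1 gate 97.15 CPM and the Rgs5 gate 63.6 CPM. The Col10a1+Ihh gate was the lowest of the 9, at 2.53 CPM from 5 UMIs in 4 of 80 barcodes. Thinned shares were 60.36% in the Bglap gate, 0.813% in the Col10a1+Ihh gate and 0.874% in B cells (73.21%, 5.00% and 1.24% unthinned), so that the Col10a1+Ihh share did not exceed that of B cells at equal depth.

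Mixed barcodes moved this order too. In the Rgs5 gate 15 of the 21 Nrp2 UMIs lay in the 2 barcodes of the Cdh5 gate, 14 of them in 1 barcode, and the 32 others held 20.49 CPM (7.52 to 44.6). Without the barcodes of the Bglap gate, the Col2a1 gate held 16.76 CPM of Nrp2 in place of 97.15 CPM. The Dcn and Col3a1 gate held 77.17 CPM in the 78 barcodes outside the Prg4+Cilp and Bglap gates, and the 12 it shared with the Bglap gate held 988.4 CPM. Osteoclasts, the bone-resorbing cells, were also rich in Nrp2, at 774.2 CPM (716 to 836) in 27 of 28 Ptprc barcodes with at least 10 Ctsk and Acp5 UMIs. Of these, 3 were also in the Bglap gate, and the 25 others held 668.5 CPM (606 to 735). The Bglap value was as large without them, 606.8 CPM (556 to 661) in the 39 Bglap barcodes with neither a Ptprc UMI nor those osteoclast markers. In the 31 Bglap barcodes outside the Col2a1 gate, Nrp2 was found in 29, at 723.8 CPM, against 12 of the 25 inside it, at 515.4 CPM. In the vessel gate itself Nrp2 stood at 320.4 CPM (267 to 381) in the 47 Cdh5 barcodes without Ptprc, and 29 of the 30 of them with Stab2 or Flt4 held it.

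Pdgfrb, the mural receptor of Pdgfb, was highest in the Cxcl12 gate at 441.5 CPM (359 to 538), with 98 UMIs in 23 of 26 barcodes. The Rgs5 gate followed at 290.8 CPM (236 to 355), with 96 UMIs in 25 of 34 barcodes. Both stayed so outside the Cdh5 gate, at 464.6 and 283.4 CPM. The Dcn and Col3a1 gate held 58.4 CPM, with 117.1 CPM in its 78 barcodes outside the Prg4+Cilp and Bglap gates. The Cdh5 gate held 26.9 CPM in 5 of 97 barcodes, and the cartilage, Bglap and Ptprc gates held between 1.67 and 22.9 CPM. Within the Rgs5 gate, the 23 barcodes with the contractile genes Acta2 or Myh11 held 422.3 CPM (332 to 530) and the 11 without them 142.1 CPM (89.0 to 215). Thinned shares were 75.36% in the Cxcl12 gate, 56% in the Rgs5 gate and 0.277% in B cells (88.46%, 73.53% and 0.495% unthinned).

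Receptors were then counted in the same barcode. Among the 47 Cdh5 barcodes without Ptprc, 33 held both Kdr and Flt1, 34 held both Kdr and Nrp1, 35 held both Kdr and Nrp2, and 33 held both neuropilins. The Vegfa ligand and Kdr were found together in 11 of these 47 barcodes. Of the 97 Cdh5 barcodes 29 held Pdgfb, 5 held its receptor and 1 held both, too few to say whether ligand and receptor occurred together more or less often than apart. In the Cxcl12 gate outside the Cdh5 gate, 15 of 22 barcodes held both Vegfc and Pdgfrb. In the Bglap gate 29 of 56 held both Vegfa and Nrp2. These counts depend on depth and do not show that transcripts were linked beyond their levels.

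To set neighbouring cell types against each other, 5 comparisons of gates were made, with a gene counted as changed when its CPM differed at least 4-fold and it had at least 20 UMIs on both sides together. The first asked how the Col10a1+Ihh gate differed from the 207 Col2a1 barcodes outside it. Vegfa was 2.25-fold higher (log2 ratio 1.17, 0.99 to 1.35), short of 4-fold. With the barcodes of both gates left out the log2 ratio was 0.74, but 35 of the 36 Col10a1+Ihh barcodes that remained were also in the Prg4+Cilp gate. Of 6 members with enough UMIs none was higher and 1 lower, against a background of 1.61% of all tested genes higher and 4.16% lower. The lower gene was Nrp2 (log2 ratio −5.69), which still met the rule with Bglap-gate barcodes left out (−3.11). Nrp1 was also below the Col2a1 gate (−1.46, −2.02 to −0.93). Among 48 other angiogenic genes listed by role, 30 were tested, with 3 higher and 5 lower and a median log2 ratio of −0.29, beside −0.16 over all tested genes. Higher were the hypoxia-regulated prolyl hydroxylase Egln3 (2.84), the matrix protease inhibitor Timp3 (2.31) and the hypoxia factor Epas1 (2.30). Egln3 was highest in the Prg4+Cilp gate, at 25.38 CPM. It stood at 10.1 CPM in the Col10a1+Ihh gate and at 1.05 CPM in the whole Col2a1 gate. In the same order Timp3 stood at 1333, 1798 and 677.3 CPM, and Epas1 at 59.69, 59.09 and 21.61 CPM. The 35 Col10a1+Ihh barcodes shared with the Prg4+Cilp gate were not left out for the listed genes. Lower were the ligand Pdgfd (−3.90), the inhibitor Serpinf1 (−3.03), the receptor Pdgfra (−2.71), the chemokine Cxcl12 and the sphingolipid receptor S1pr1 (both −2.01, from 3 UMIs against 26). Scaled by the median of ratios 3 listed genes were higher and 3 lower. Without the Bglap-gate barcodes 5 of 27 were higher, with Pdgfa and Thbs2 added and none lower. Thbs2 then held 31.79 CPM, against 48.97 CPM in the whole Prg4+Cilp gate. Serpinf1 then stood at −0.70 (−1.27 to −0.17), from 37 UMIs against 139. Pdgfra was at 1.62 (−0.94 to 4.39), from 4 UMIs against 3, and Pdgfd held 0 against 5, so that neither could be tested.

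The Bglap gate was then set against the Cxcl12 gate, as osteoblast against marrow stroma type. Vegfa did not differ beyond its interval (0.12, −0.44 to 0.74), and its sign turned with mixed barcodes left out, to −0.68 without the Col2a1 gate. Of 8 members tested none was higher and 5 were lower in the Bglap gate (backgrounds of 4.39% and 9.33%). Vegfc (−5.18), Nrp1 (−3.97) and Pdgfrb (−6.03) were lower also with Cdh5-gate barcodes left out. Flt1 (−8.62) and Kdr, at least 66.8-fold lower, were lower only through the Cxcl12 barcodes of the Cdh5 gate and could not be compared without them. Nrp2 was higher, at 1.34 (0.94 to 1.78), short of 4-fold. Of 30 listed angiogenic genes tested, 3 were higher and 14 lower, with a median of −1.07 beside −0.42 over all. The 3 higher were the cartilage inhibitor Cnmd (6.63), Serpinf1 (3.88) and the glycolytic enzyme gene Pgk1 (2.12). The 5 with the lowest ratios were Cxcl12 itself (−9.45, a gate gene), Esm1 (−8.74), Emcn (−7.06), Pecam1 (−5.78) and Plxnd1 (−5.59), of which the last 4 are known from endothelial cells, although Esm1 was highest here in the Cxcl12 gate (576.7 CPM, against 45.89 CPM in the Cdh5 gate). Without the Cdh5-gate barcodes 25 listed genes were tested, with 3 higher and 9 lower, and Esm1 and Plxnd1 were still among the lower ones, while Emcn and Pecam1 had too few UMIs to be tested (1 against 0 and 4 against 2). Timp3 then took the place of Pgk1 among the higher. However, the higher genes other than Serpinf1 rested on the 25 Bglap barcodes shared with the Col2a1 gate. Without the barcodes of the Cdh5 and Col2a1 gates 17 listed genes were tested, with 1 higher and 6 lower. Serpinf1 was still higher (4.46, 3.90 to 5.08), whereas Timp3 (0.74, −0.19 to 1.82) and Pgk1 (0.87, −0.38 to 2.41) did not differ beyond their intervals, and the Bglap barcodes outside the Col2a1 gate held 0 Cnmd UMIs. Of the members Vegfc (−3.99), Nrp1 (−4.36) and Pdgfrb (−4.87) were lower there too, and Nrp2 passed 4-fold (2.07, 1.52 to 2.66). Scaling by the median of ratios in place of total UMIs shifted this comparison by −0.57 and changed the split over all genes from 307 higher and 653 lower to 529 and 393, while the members' calls stayed at 0 and 5 and the listed genes' became 3 and 12.

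Between the Cdh5 and Rgs5 gates, as endothelial against mural type with shared barcodes left out, the receptors separated. Of 8 members tested, 3 were higher and 1 lower in the Cdh5 gate (backgrounds of 8.78% and 5.20%). Flt1 was higher by 6.94 (4.45 to 12.24) with 358 UMIs against 1, Kdr was at least 36.3-fold higher with 318 UMIs against 0, and Nrp2 was higher by 3.13. Pdgfrb was lower (−4.46, −5.52 to −3.55), with 11 UMIs against 83. Pdgfb was higher by 1.65 (0.44 to 3.16), and it passed 4-fold, at 2.56, once barcodes with Ptprc were left out. Nrp1 was at 0.66 (0.14 to 1.20), and at 1.48 without the Ptprc barcodes. Vegfa did not differ beyond its interval (0.10, −0.76 to 1.04, and −0.70, −1.94 to 0.52, without them). Of 38 listed genes tested, 15 were higher and 6 lower, with a median of 0.67 beside 0.19 over all. Without the Ptprc barcodes 17 of 36 were higher and 4 lower, with a median of 1.82 beside 0.15. By fitted ratio Emcn (6.46), Egfl7 (6.16), Flt4 (5.65), Eng (4.92) and Pecam1 (4.09) led the endothelial side. Robo4, Tek, Aplnr, Ephb4 and Dll4 were at 0 in the Rgs5 gate and at least 13.4, 12.4, 11.9, 7.75 and 6.16-fold higher. On the mural side Sema3c was at least 78.9-fold and Pdgfra at least 23.4-fold higher, and Serpinf1 (−2.96), Pdgfa (−2.63), Angpt2 (−2.23) and Col18a1 (−2.19) followed. Without the Ptprc barcodes the 4 on the mural side were Sema3c, Pdgfra, Pdgfa (−2.09) and Thbs1 (−2.44). Angpt2 (−1.38, −2.83 to −0.05) and Col18a1 (−1.20, −1.68 to −0.73) then fell short of 4-fold, and Serpinf1 (−2.70, from 3 UMIs against 14) had too few UMIs to be tested.

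**Figure D4:**
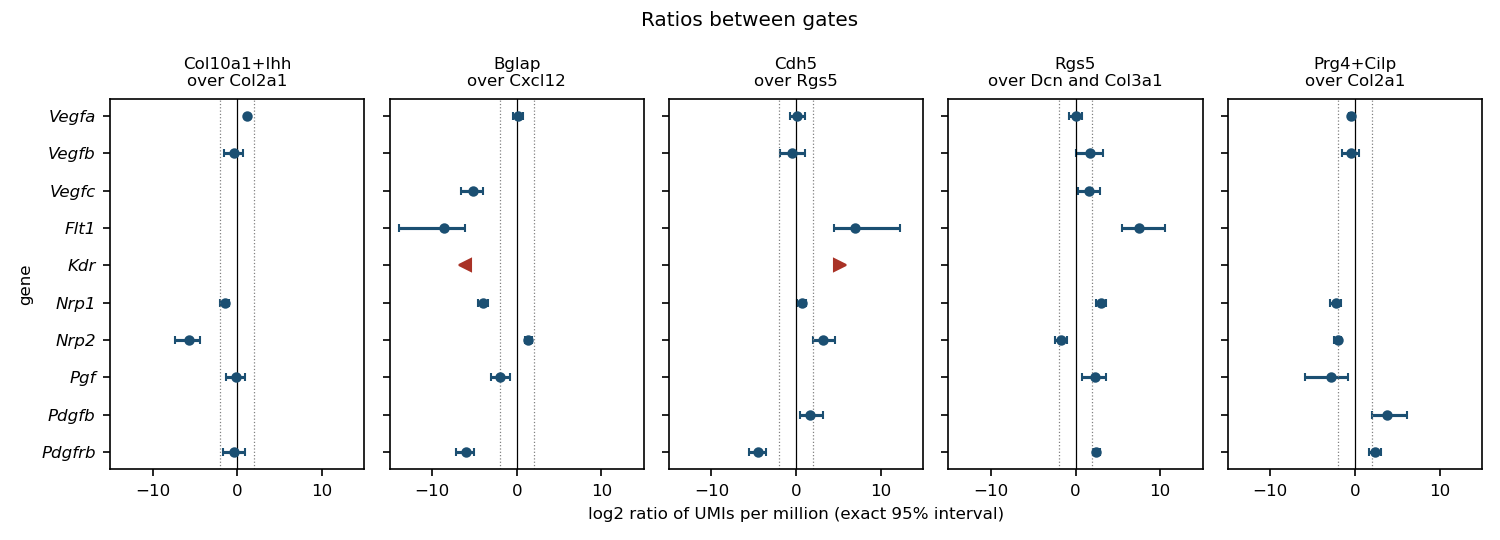
Log2 ratio of CPM (horizontal axis, exact 95% intervals) of the members with at least 20 UMIs in 5 comparisons of gates, with dotted lines at 4-fold. Red triangles are bounds where 1 side had no UMI. Flt1 and Kdr lie to the right and Pdgfrb to the left in the Cdh5 over Rgs5 panel, at 6.94, at least 5.18 and −4.46.

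The Rgs5 gate was also set against the Dcn and Col3a1 gate, as mural against fibroblast type. Of the 172 Dcn and Col3a1 barcodes, however, 82 were also in the Prg4+Cilp gate of surface cartilage. That gate was left out only for the Pdgfrb ratio from barcodes in exactly 1 gate. Of 8 members tested, 4 were higher and 0 lower (backgrounds of 3.79% and 3.31%). Pdgfrb was higher by 2.47 (2.07 to 2.86), at 318.8 against 57.7 CPM, and Nrp1 by 2.97. With only barcodes in exactly 1 gate the Pdgfrb ratio was 1.28, short of 4-fold. Flt1 (7.46) was higher through the Cdh5-gate barcodes alone, with 1 UMI against 2 without them. Pgf (2.26) rested on 8 UMIs against 13. It had too few UMIs to be tested without the Cdh5-gate barcodes (6 against 13) or without the Bglap-gate barcodes (8 against 11). Pgf also fell short of 4-fold when scaled by the median of ratios. That scaling shifted the comparison by 0.39 and changed the split over all genes from 336 higher and 293 lower to 250 and 472. With it Nrp2 was counted as lower, as it also was without Cdh5-gate barcodes (−3.77). However, 392 of the 490 Nrp2 UMIs of the Dcn and Col3a1 gate lay in its 12 barcodes of the Bglap gate, and without those the ratio was 0.35 (−0.44 to 1.07). With the Cdh5-gate barcodes, which held most Nrp2 UMIs of the Rgs5 side, left out as well, Nrp2 stood at 15.91 CPM from 4 UMIs against 51.71 CPM and was lower again (−1.70, −3.61 to −0.30), short of 4-fold. Of 37 listed genes tested, 13 were higher and 4 lower, with a median of 1.10 beside 0.23 over all, or 11 higher and 4 lower under the other scaling. Col18a1 (6.25), Pecam1 (5.50), Angpt2 (5.21), Egfl7 (4.77) and Esm1 (4.67) were highest. Of these Pecam1 and Egfl7 are endothelial genes, and so is Esm1 by background, with its highest level here in the Cxcl12 gate. Summed endothelial markers stood at 427.1 CPM in the Rgs5 gate and 78.53 CPM in its barcodes outside the Cdh5 gate. Without the Cdh5-gate barcodes 5 of 32 listed genes were higher and 4 lower (median −0.06 beside 0.17), and of the 5 named only Col18a1 (6.33) was still tested, and it was higher. The other 4 had fewer than 20 UMIs. Angpt2 kept its ratio, at 59.68 against 1.78 CPM from 15 and 4 UMIs (5.07, 3.42 to 7.12), and Pecam1 stood at 35.81 against 2.22 CPM from 9 and 5 UMIs (4.01, 2.28 to 5.94). Esm1 (2.16, −0.02 to 4.06) and Egfl7 (1.16, −2.11 to 3.49) no longer differed beyond their intervals. Cnmd (−4.37), Serpinf1 (−4.31), Fgf2 (−3.59) and Pdgfc (−2.56) were lower, and all 4 stayed so without the Cdh5-gate and Bglap-gate barcodes. Of these, Cnmd was highest in the Col2a1 gate (2274 CPM), Serpinf1 in the Bglap gate (2053 CPM) and Fgf2 in the Prg4+Cilp gate (164.4 CPM). These gates share 14, 12 and 82 barcodes with the Dcn and Col3a1 gate. Ratios of the 4 genes without the Col2a1 or Prg4+Cilp gate were not computed.

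In the last comparison, the Prg4+Cilp gate against the Col2a1 gate, Vegfa was lower (−0.51, −0.70 to −0.31), with −0.07 (−0.48 to 0.31) when only barcodes in exactly 1 gate were used. Of 7 members tested, 2 were higher and 3 lower (backgrounds of 3.59% and 4.18%). Pdgfrb was higher by 2.36 (1.69 to 3.07), and Pdgfb by 3.78 through the single barcode described above. Of the 200 Prg4+Cilp barcodes 82 were also in the Dcn and Col3a1 gate. That gate held 58.4 CPM of Pdgfrb, against 22.88 CPM in the Prg4+Cilp gate. The shared barcodes were not left out for Pdgfrb or for the listed genes below. Nrp1 (−2.23) and Pgf (−2.79, from 2 UMIs against 30) were lower. Nrp2 was lower (−2.03), but with the Bglap-gate barcodes left out it was 0.54 (0.03 to 1.04) in the other direction. Of 33 listed genes tested, 7 were higher and 2 lower, with a median of 0.77 beside 0.06 over all. Without the Bglap-gate barcodes 8 of 31 were higher and 1, Cnmd, was lower. With those barcodes kept, the 5 highest were Egln3 (4.92), Sema3e (3.98), Ramp2 (3.90), Pdgfc (2.83) and Thbs2 (2.64). The lower ones were Cnmd (−3.63) and Pdgfd (−2.93), which without the Bglap gate had 2 UMIs against 5, too few to test. Sema3e, Ramp2, Pdgfc and Thbs2 stood at 40.03, 39.32, 12.87 and 48.97 CPM in the Prg4+Cilp gate. All 4 were higher in the Dcn and Col3a1 gate, at 47.94, 87.16, 23.1 and 80.63 CPM.

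As most barcodes were of blood, the members were also followed within the Ptprc gate, split by markers. Macrophages, with at least 5 UMIs of the C1q genes, held the most Pdgfb of any class examined, at 383.6 CPM (341 to 430), with 290 UMIs in 54 of 76 barcodes. Their thinned share was 54.47%, against 0.231% in B cells (71.05% and 0.396% unthinned, at median depths of 7749 and 3650.5 UMIs). Megakaryocyte barcodes held 136.7 CPM of Pdgfb in 24 of 63, of which 25 barcodes were shared with the macrophage class. Osteoclast barcodes held 107.9 CPM in 21 of 28. The rest of the blood classes held between 0 and 7.49 CPM of Pdgfb, and the 47 Cdh5 barcodes without Ptprc held 141.3 CPM (106.7 to 183.5).

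Vegfa was found in all blood classes. It ranged from 33.9 CPM in B cells over 54.0 CPM in neutrophil precursors, 101 CPM in monocytes and 134 CPM in osteoclasts to 153 CPM in the 69 basophil or mast barcodes. The 614 Ptprc barcodes that fell in no class held 163.1 CPM (151 to 176). Cxcr2 and Retnlg, genes of mature neutrophils, stood at 75.58 and 6331 CPM in these, against 43.23 and 3997 CPM in the whole gate, and Il1b at 1510 against 372 CPM. S100a8 and S100a9, also neutrophil genes, were lower there, at 8092 against 34181 CPM and 16402 against 52364 CPM, and Cd74, a gene of antigen-presenting cells, stood at 2026 against 879 CPM. Nrp1 was highest in macrophages at 80.7 CPM, with 46.9 CPM in plasmacytoid cells and 42.1 CPM in monocytes, against 4.63 CPM in B cells. Kdr and Flt1 were low throughout blood. Their highest levels, 13.0 and 7.60 CPM, were both in megakaryocyte barcodes and mostly from 1 barcode, without which they were 2.24 and 1.12 CPM. Flt1 in monocytes was spread more widely, at 7.35 CPM (5.61 to 9.46) from 60 UMIs in 48 of 671 barcodes, with at most 3 UMIs in any of them. Kdr in plasmacytoid cells stood at 6.99 CPM (3.35 to 12.9) from 10 UMIs in 9 of 166 barcodes. Outside the Cdh5 gate the Ptprc barcodes held 0.337 CPM of Kdr and 2.22 CPM of Flt1.

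**Figure D5:**
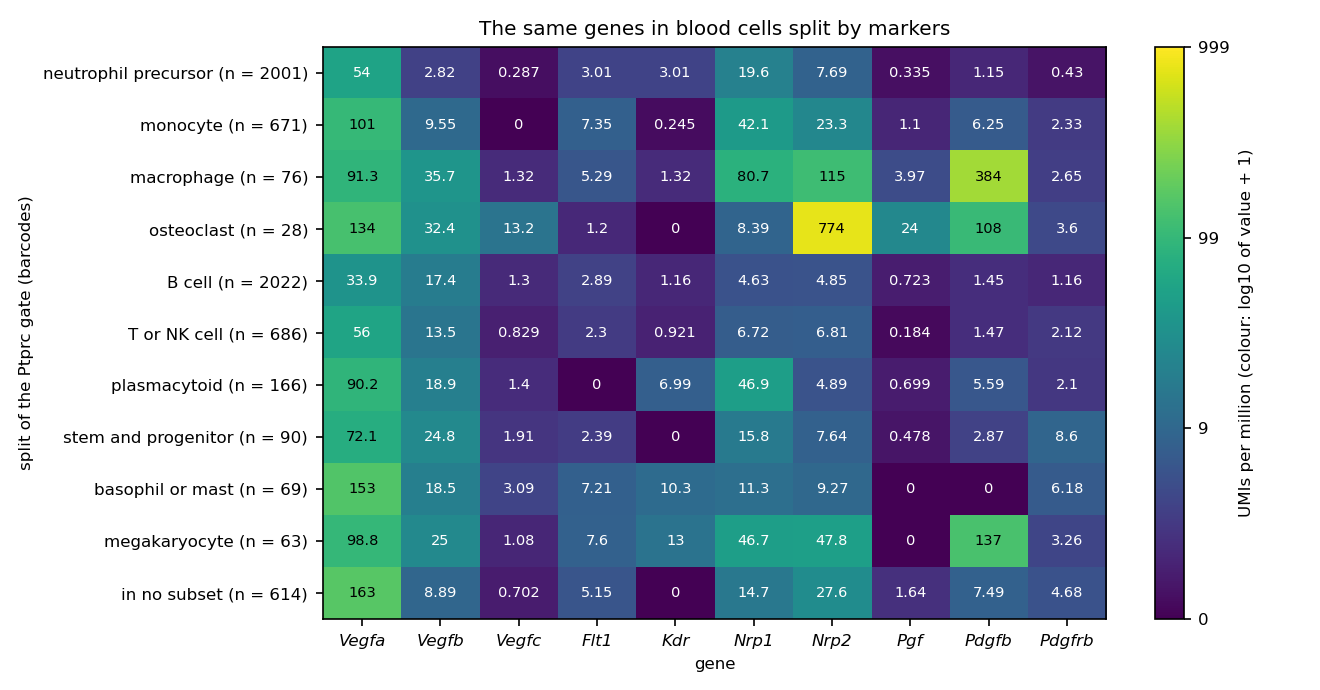
CPM of the 10 genes (columns) in classes of the Ptprc gate split by blood markers (rows, with the number of barcodes, some of which lie in more than 1 class), coloured on a log scale. Pdgfb is highest in macrophages at 384 CPM and Nrp2 in osteoclasts at 774 CPM, while Vegfa is found in every class.

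The reporter was used to divide 3 of the gates into barcodes with more than 14 UMIs of WPRE, the viral element at the end of the tdTomato transcript and the study's mark of HC-derived cells, and the remainder. In the Col10a1+Ihh gate Vegfa was higher in the 45 barcodes past this threshold, at 302.4 against 204.3 CPM (log2 ratio 0.57, 0.30 to 0.83). The ratio was 0.20 (−0.08 to 0.49) at more than 4 WPRE UMIs. In the Bglap gate Nrp2 was at 767.3 CPM in 17 barcodes and at 529 CPM in 39 (0.54, 0.33 to 0.74, and 2.22 at more than 4 WPRE UMIs), and Pgf at 31.77 against 7.45 CPM (2.09, 0.71 to 3.57), from 13 and 8 UMIs. Vegfa did not differ beyond its interval at this threshold (−0.11, −0.58 to 0.34) and was lower in the barcodes with more than 4 WPRE UMIs (−0.59, −0.995 to −0.189). In the Cxcl12 gate the 10 barcodes past the threshold held no Kdr or Flt1 UMI. There Pdgfrb (−0.10, −0.71 to 0.50) and Vegfc (0.16, −0.84 to 1.16) did not differ beyond their intervals, and Nrp2 was lower (−1.27, −2.30 to −0.33). However, no Cdh5-gate barcode passed the threshold, so the 4 shared with the Cxcl12 gate all lay on the other side. Without these 4 the Cxcl12 gate held 29 Nrp2 UMIs in place of 52. The Nrp2 ratio by WPRE was not computed without them.

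The genes whose levels over the 9 gates were most like those of 3 members were listed from 13326 genes of at least 50 UMIs, by Pearson's r of log2(CPM + 10). With 9 points that share barcodes and depth, r is given as a description only. For Kdr these were Stab2, Rasip1, Cdh5 (the gate gene), Emcn and Cyp4b1, with r between 0.997 and 0.999. For Pdgfrb they were Nlgn2, C1s1, Loxl1, Cachd1 and C1ra, with r between 0.986 and 0.994. For Vegfa they were Flvcr2, Ube2f, Timm8b, Pex11a and Pak3, with r near 0.94. Among the members themselves r was 0.98 between Kdr and Flt1, 0.88 between Vegfc and Pdgfrb, and −0.40 between Vegfa and Kdr.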

How the data were processed

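Single-cell libraries of the pooled tibial cells were aligned to mm10 and counted with Cell Ranger 3.1.0, per the study's processing notes, which also name Seurat 3. The gene annotation was not given in the sources used here. Deposited values were whole-number UMI counts per gene and barcode, pooled by the authors into 1 matrix with no map to the 8 samples. Counting was at the 3′ end, so levels were compared between gates and not between genes. The matrix held 12564 barcodes with 0 repeated. Barcodes of at least 1000 genes entered the 9 gates by raw UMIs, and CPM is the summed UMIs of a gene per 1000000 summed UMIs, with exact Poisson intervals. Shares have exact Clopper-Pearson intervals, ratios have exact conditional intervals, and thinned shares are means of 100 draws of 3000 UMIs per barcode, over the barcodes that have as many (4895 of 5716 in the Ptprc gate, and all but at most 4 in each other gate). A count of 0 was given with the level that 3 UMIs would have. With cells of 1 pool no test was run. Shared barcodes were kept in the Col10a1+Ihh gate in its comparison with the Col2a1 gate and left out of both sides in the others. Scrublet, run in scanpy 1.11.5, called 273 of the 8023 barcodes (3.403%) doublets. They were kept and left out in an alternative. Other alternatives changed the gene floor, the thresholds, the scaling, the least UMIs, the weight of cells, depth and the mixed barcodes. Leaving the barcodes of a further gate out of a comparison was chosen after seeing the data, except the Ptprc barcodes for Flt1, Kdr, Pdgfb and Pdgfrb. Of the 48 listed genes, those past 4-fold were named up to 5 in each direction by ratio (those at 0 on 1 side separately, by their bound), with the 5 genes most like Vegfa, Kdr and Pdgfrb. The members and lists were chosen with earlier results of these data known. Scripts (Python 3.11.15, numpy 2.4.6, scipy 1.17.1, pandas 2.3.3, matplotlib 3.10.9) were tested on simulated data.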

Additional observations from a re-analysis of the deposited data

How the results depend on the processing

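No paired analysis was possible because the pool carries no sample numbers and no result comes from a test. With shared barcodes left out of both sides, Vegfa in the Col10a1+Ihh over the Col2a1 gate was 0.74. With only barcodes in exactly 1 gate, the log2 ratios were −0.735 for Vegfa in Bglap over Cxcl12, 1.28 for Pdgfrb in Rgs5 over Dcn and Col3a1, and −0.073 for Vegfa in Prg4+Cilp over Col2a1. The last was −0.31 after thinning. Without Ptprc barcodes Pdgfrb in Cdh5 over Rgs5 was −3.46. Among alternatives chosen after seeing the data, Vegfa in Bglap over Cxcl12 was −0.68 without the Col2a1 gate, Nrp2 in Prg4+Cilp over Col2a1 turned to 0.54 without the Bglap gate, and Vegfc in Rgs5 over Dcn and Col3a1 turned to −1.16 without the Cdh5 gate and to −1.28 without the Cdh5 and Bglap gates. Nrp2 in the same comparison turned to 0.35 without the Bglap gate alone, with Cdh5-gate barcodes still on the Rgs5 side, and was −1.70 without both. These settings use fewer barcodes. Further causes were not tested. With at least 50 UMIs asked for, the genes past 4-fold in Col10a1+Ihh over Col2a1 were 113 higher and 214 lower, 251 were lower in Bglap over Cxcl12, 351 were higher and 184 lower in Cdh5 over Rgs5, 151 were higher in Rgs5 over Dcn and Col3a1, and 253 were higher and 302 lower in Prg4+Cilp over Col2a1. With at least 1 UMI these were 439 higher, 2175 lower, 1011 lower, 1136 higher and 855 higher in the same order of comparisons. Median of ratios scaling gave 529 higher and 393 lower in Bglap over Cxcl12, and 472 lower in Rgs5 over Dcn and Col3a1. It also shifted Cdh5 over Rgs5 by −0.17 and Prg4+Cilp over Col2a1 by 0.12. Of 140 ratios recomputed, 118 stayed within their interval. In all 12 changed sign, of which 4 (those of Nrp2 and Vegfc above) came from a ratio whose interval left out 0 and 8, all of Vegfa, from one whose interval held it. Of the levels 42 stayed and 59 moved, of the shares 33 and 57, of the gene counts 29 and 16, and of the WPRE ratios 38 and 4. Ratios of Kdr and Flt1 after thinning in Cdh5 over Rgs5, and of Kdr with equal weight per cell, could not be given, since the Rgs5 side held no UMI. Depth limits the 26 Cxcl12 and 34 Rgs5 barcodes most, where 3 UMIs were 13.5 and 9.09 CPM.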
